A study of Mus musculus with 12 samples.

Results

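MOF (encoded by Kat8) is a lysine acetyltransferase that modifies histone H4. Its binding was mapped by chromatin immunoprecipitation and sequencing (ChIP-seq) in visceral white adipose tissue of C57BL/6 mice, 8 weeks old and on a standard diet, with both copies of the gene (Mof+/+) or with 1 copy (Mof+/-). The labels give 12 libraries, 2 each of input, H3 ChIP and MOF ChIP for either genotype, and 1 list of MOF peaks was analysed for each genotype. The mice were heterozygous in the whole body, nuclei came from whole tissue, and chromatin was cut with CviKI-1, an enzyme that cleaves at RGCY (with a purine for R and a pyrimidine for Y), as well as by sonication. The series' design text names 2 control and 3 Mof+/- animals, whereas the labels name 2 of each. The labels and the study's reporting summary also name different MOF antibodies. No value of a single library was analysed, so there is no replicate error and no test between genotypes, and all intervals below cover counting error only.

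Described here are the narrow Mof+/+ peaks at promoters with few CpG sites. They were selected on the Mof+/+ list itself: peaks on chromosomes 1 to 19, under 2000 bp wide, within 1 kb of the start site of a protein-coding transcript, where the nearest such start held fewer than 20 CG dinucleotides within 500 bp on either side. Pairs of divergent genes with starts at most 1000 bp apart were left out, which removed 5 peaks. The rule was met by 627 of the 19773 Mof+/+ peaks, at 575 start sites of 518 genes. The comparison class is the 7091 narrow peaks whose nearest start held 20 or more CG dinucleotides.

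Mammalian promoters fall broadly into CpG islands, which are unmethylated and active in most cell types, and CpG-poor promoters, many of which belong to genes used by particular cell types. Housekeeping genes mostly have the former, while antigen receptors, cytokine receptors and secreted hormones often have the latter. A MOF peak at a CpG-poor promoter can therefore be set beside what is known of the cells that use that gene.

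Sequences are shown for the strongest member over its own start in each of the larger gene groups, so that the low CpG content that defines these promoters can be seen. Each runs 5′ to 3′ on the strand of the gene and holds the 200 bases before the start and the first 30 of the transcript, in GRCm38, with CG dinucleotides in capitals. Nrip1 encodes a nuclear receptor corepressor of fat cells, Cd38 an ectoenzyme that degrades NAD, Lck the proximal kinase of the T cell receptor, Ptprc the leukocyte common antigen CD45, Cd68 a lysosomal glycoprotein of macrophages, and Ifi27 an interferon-induced protein. Tra2b, a splicing factor gene, had the strongest narrow peak over a start with at least the median CpG content of the comparison class and is printed for contrast.
Nrip1, chr16:76323629-76323858, minus strand: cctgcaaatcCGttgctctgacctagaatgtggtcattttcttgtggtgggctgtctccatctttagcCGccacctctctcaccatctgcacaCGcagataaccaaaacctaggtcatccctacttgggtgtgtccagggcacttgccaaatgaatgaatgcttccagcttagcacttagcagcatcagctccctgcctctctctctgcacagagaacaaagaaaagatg
Cd38, chr5:43868353-43868582, plus strand: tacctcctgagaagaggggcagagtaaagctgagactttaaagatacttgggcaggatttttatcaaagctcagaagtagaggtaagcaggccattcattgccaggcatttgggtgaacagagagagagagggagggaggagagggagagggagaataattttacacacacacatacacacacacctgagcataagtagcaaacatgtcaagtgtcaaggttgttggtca
Lck, chr4:129558362-129558591, minus strand: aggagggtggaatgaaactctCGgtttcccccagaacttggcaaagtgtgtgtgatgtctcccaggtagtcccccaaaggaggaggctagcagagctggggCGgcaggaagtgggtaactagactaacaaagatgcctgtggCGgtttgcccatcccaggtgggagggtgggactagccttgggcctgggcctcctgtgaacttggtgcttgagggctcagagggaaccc
Ptprc, chr1:138175277-138175506, minus strand: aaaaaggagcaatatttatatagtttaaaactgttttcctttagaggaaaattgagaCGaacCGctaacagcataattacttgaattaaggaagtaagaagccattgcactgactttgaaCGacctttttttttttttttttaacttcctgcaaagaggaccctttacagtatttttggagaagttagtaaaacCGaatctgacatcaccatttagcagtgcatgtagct
Cd68, chr11:69666124-69666353, minus strand: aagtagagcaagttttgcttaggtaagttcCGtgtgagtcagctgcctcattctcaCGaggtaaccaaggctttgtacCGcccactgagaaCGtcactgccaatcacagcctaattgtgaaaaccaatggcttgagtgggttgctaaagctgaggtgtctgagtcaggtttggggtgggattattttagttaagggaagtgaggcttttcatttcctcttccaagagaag
Ifi27, chr12:103434092-103434321, plus strand: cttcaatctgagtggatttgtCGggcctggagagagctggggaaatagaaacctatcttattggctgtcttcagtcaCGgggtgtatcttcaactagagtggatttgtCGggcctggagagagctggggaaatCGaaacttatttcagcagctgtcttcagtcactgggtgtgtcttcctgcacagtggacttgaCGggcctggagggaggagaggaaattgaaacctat
Tra2b, chr16:22265976-22266205, minus strand: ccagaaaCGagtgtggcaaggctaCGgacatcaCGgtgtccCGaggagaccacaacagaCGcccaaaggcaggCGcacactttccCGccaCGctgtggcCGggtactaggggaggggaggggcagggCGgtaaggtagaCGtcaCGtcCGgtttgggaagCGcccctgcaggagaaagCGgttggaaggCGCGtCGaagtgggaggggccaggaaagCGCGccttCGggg
The Cd38 stretch held 0 CG dinucleotides, those of Nrip1 and Lck 3 each, those of Ptprc and Cd68 4 each and that of Ifi27 5, whereas the Tra2b stretch of the same 230 bases held 21.

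The peaks at these promoters rested on few fragments. The number of fragments over a summit and the input background there were recovered from the fold enrichment and p-value of each peak. The 298 members at the lowest background of the list stood on 3.52 background fragments, and the median member had 16 fragments over its summit (interquartile range 14 to 18). The median fold enrichment, the ratio of fragments to input background at the summit with 1 added to both, was 3.32 (interquartile range 2.88 to 3.76), against 3.76 (3.20 to 4.43) in the comparison class and 3.41 over all 19579 Mof+/+ peaks on chromosomes 1 to 19. The median width was 644 bp, against 703 bp and 610 bp. These values entered the choice of peaks and are given as description. For 602 of the 627 members, the exact 95% Poisson interval of the fragment count put the fold enrichment on both sides of the members' median, so that most members could not be ranked against each other. The interval lay above the median for 19 members and below it for 6.

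**Figure D1:**
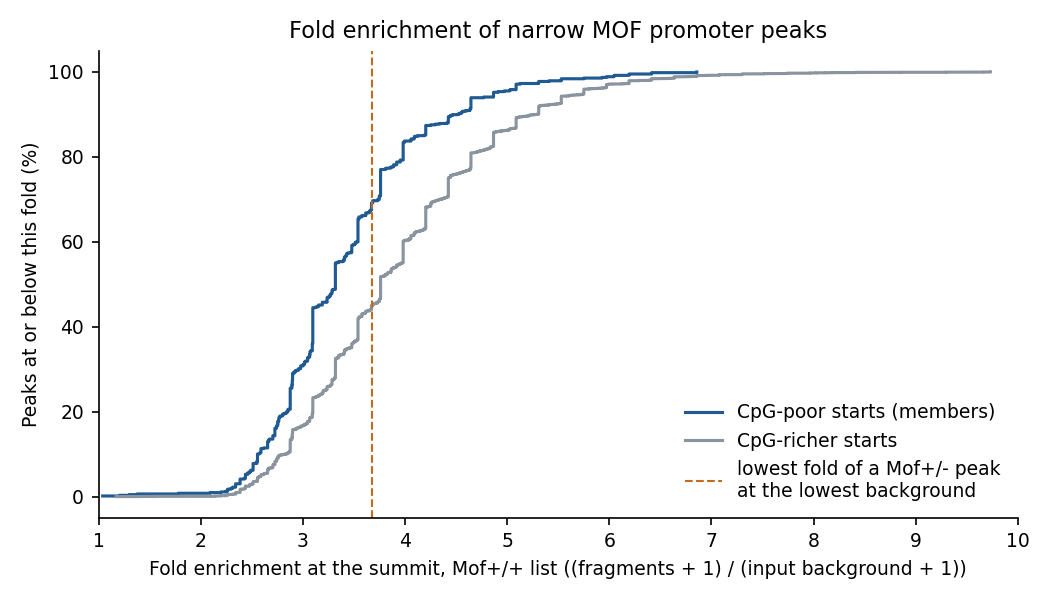
Cumulative share of narrow Mof+/+ promoter peaks (y axis, percent) by fold enrichment at the summit (x axis, ratio to input background with 1 added to both), for the 627 members at CpG-poor starts and the 7091 peaks at CpG-richer starts. The members' curve lies to the left (medians 3.32 and 3.76), and the dashed line at 3.68 marks the lowest fold of a Mof+/- peak at that list's lowest background.

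The highest fold enrichment was at Ctse, which encodes cathepsin E, an intracellular aspartic protease (chr1:131637498-131639391, 30 fragments, fold enrichment 6.86, Poisson interval 4.70 to 9.69). Gpr18, a G protein-coupled receptor of lymphocytes, and Tagap, a GTPase-activating protein of activated T cells, followed at 6.42 (4.34 to 9.17). Cd38 and Foxp1, a forkhead factor needed for B cell development, were both at 6.19 (4.16 to 8.91). The interval of each of these peaks holds the value of all the others named, so their order is not fixed at this depth. Then came Tex14 (6.05), known from intercellular bridges of germ cells, Agpat3 (6.04), an acyltransferase of phospholipid synthesis, Il21r (5.97), the receptor for interleukin 21, Tpst2 (5.93), which sulfates tyrosines of secreted proteins, and Tapbpl (5.75), which edits the peptides loaded on MHC class I. Traf3ip3, Utrn (utrophin) and Gadd45gip1 tied at 5.53.

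At the thresholds of the rule the peaks just inside and just outside were close in median strength. The median fold enrichment was 3.21 over the 44 narrow peaks at starts with 19 CG and 3.15 over the 34 at starts with 20 CG. The strongest of the first were at Foxp1 (6.19), Gpsm3 (5.09) and Wdfy4 (5.03), and of the second at Ptpre (4.47), Ythdc2 (4.20) and Irf9 (4.09). The 5 members of 1900 bp or more had a median of 4.20, with Foxp1 and S1pr4 (4.77) on top and Spib and Abi3 tied at 4.20, and the 11 peaks from 2000 to under 2100 bp had 4.42, with Add3 (5.75), Sla (5.31) and Selplg (4.87) on top. The 30 members over 900 bp from the start had a median of 3.26, led by Arap1 (4.06), Aldh3b1 (3.98) and Pold4 (3.98), and the 23 peaks beyond 1000 and up to 1100 bp away had 3.10, led by Gnai2 (4.65), Pitpnm2 (3.96) and Mmp9 (3.76).

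CpG-poor starts seldom carried a narrow peak, and less often the fewer CG they held. Of the genes with a start of 0 to 4 CG, 26 of 2569 (1.01%, Wilson 95% interval 0.692 to 1.48) had a narrow peak nearest to such a start. The share was 2.56% (2.12 to 3.08) at 5 to 9 CG, 5.55% (4.85 to 6.34) at 10 to 14 and 7.68% (6.75 to 8.73) at 15 to 19, whose interval overlaps that of 20 to 24 CG, 8.22% (7.05 to 9.56). It was 43.1% (40.3 to 46.04) at 70 to 74 CG and highest at 100 to 181 CG, with 54.9% (52.7 to 57.1). Members had a median of 13 CG around their start (10 to 16), and the other 17827 CpG-poor starts a median of 9 (5 to 14). Together, 518 of the 10411 genes with a CpG-poor start had a member, which is 4.98% and serves as the background for the gene groups below. It was 5.78% without the 1449 olfactory and vomeronasal receptor genes, of which 0 had a member, and 4.01% (240 of 5980) over genes that have CpG-poor starts only.

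**Figure D2:**
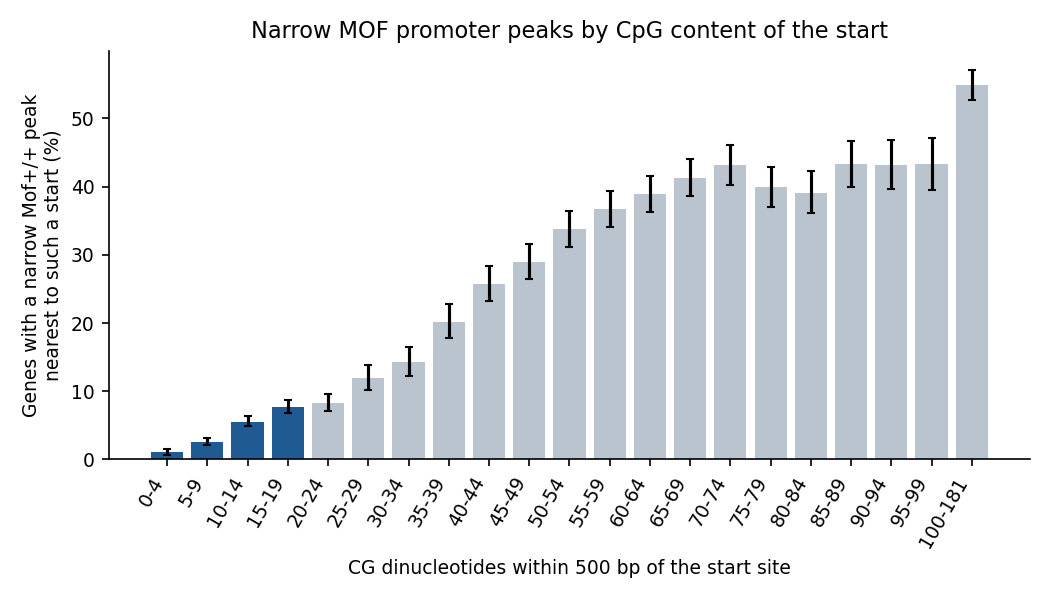
Share of genes (y axis, percent, with Wilson 95% intervals) that had a narrow Mof+/+ peak nearest to a start in each class of CG dinucleotides within 500 bp of it (x axis), with the classes of the members in blue. The share goes from 1.01% at 0 to 4 CG to 7.68% at 15 to 19 CG, 43.1% at 70 to 74 CG and 54.9% at 100 to 181 CG.

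The members fall into 2 kinds by gene. There were 286 peaks at 240 genes with CpG-poor starts only, and 341 peaks at 278 genes that also have an annotated start with 20 or more CG, called CpG-rich here. Whether the tissue used either start was not analysed here. Ctse, Gpr18, Tagap, Cd38, Il21r and Tapbpl were of the first kind, and Foxp1, Tex14, Agpat3, Tpst2, Traf3ip3 and Utrn of the second. The median fold enrichment was 3.32 in the first kind and in all members. A CpG-rich start of a protein-coding gene lay within 1 kb of the peak in 59 members (9.41%), and 568 members had none. The peak itself could still be CpG-rich: 104 members held over 20 CG per kb and 14 over 40, among them Zfhx3 with 137 and Slc4a7 with 106. These 2 were named after their values were seen.

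The pan-leukocyte list, which holds genes of leukocytes in general and several that are mainly lymphoid, had the highest share of members, although its interval overlaps that of the B cell list. Of 42 pan-leukocyte genes with a CpG-poor start, 27 had a member (64.3%, Wilson interval 49.2 to 77.0, background 4.98%). The share was 40.5% where the peak had to cover the start (background 2.57%) and 33.3% under 1000 bp of width (background 3.70%). The strongest were S1pr4, a lysophospholipid receptor that guides lymphocyte traffic (27 fragments, fold enrichment 4.77, Poisson interval 3.20 to 6.86), and, at 4.65 (2.92 to 7.05) each, Ptprc and Hcst, the adaptor DAP10. Gmfg, a regulator of actin branching, was at 4.63. The weakest was Hcls1 at 2.26. A further 10 of the 42 had a peak of 2000 bp or more within 1 kb of the start, which the rule leaves out: Ptprcap, Ptpn22, Cd52, Cd53, Coro1a, Selplg, Arhgap45, Gimap1, Gimap4 and Gimap6. With those, 37 of 42 (88.1%, 75.0 to 94.8) had a MOF peak at a CpG-poor start, where 616 of 10411 genes (5.92%) did. Of the remaining 5, Itgal and Dock2 had a peak at another start, and Cd69, Nfam1 and Tespa1 had none within 1 kb of a coding start. The gene lists were chosen with earlier results of these data known, so these shares are description only. The 42 genes include 7 Gimap genes, all with a member or wide peak and some side by side, so they are not independent items.

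Of 34 B cell genes, 12 had a member (35.3%, 21.5 to 52.1, an interval that overlaps those of the T and NK cell and adipocyte lists), and 8 more had a wide peak, which brought the share to 58.8% (42.2 to 73.6). Among peaks under 1000 bp wide, the share was 17.6% for B cell, 25.0% for T and NK cell and 22.2% for adipocyte genes, beside 33.3% for the pan-leukocyte list and 3.70% for all genes with a CpG-poor start. The members' fold enrichments were 6.19 at Cd38, 4.20 at Spib, an ETS factor of B cells, 3.95 at Mzb1, a chaperone of antibody-secreting cells, 3.76 at H2-DMb2, which helps load MHC class II, and 3.73 at Cd22, a brake on the B cell receptor. Those with a wide peak were Cd79b, Fcmr, Cxcr5, Btla, Cd74, H2-Ob, Ciita and Dok3. Of 40 T and NK cell genes, 11 had a member (27.5%, 16.1 to 42.8) and 0 a wide peak. The share was 17.5% where the peak had to cover the start, and 12.9% at starts with fewer than 15 CG, beside 3.77% of all genes with such a start. They were led by Lck at 4.87 (3.10 to 7.32), Cd27, a costimulatory receptor, at 4.55, Cd5, a brake on antigen receptor signals, at 3.98, and Cd3d, a subunit of the T cell receptor complex, at 3.80, with Ubash3a and Ctla4 tied at 3.54. Cd3e, another subunit of that complex, had 20 CG around its start and was not eligible.

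Myeloid genes had a member at 10 of 51 (19.6%, 11.0 to 32.5), and 9.80% (4.26 to 20.98) had one that covered the start, beside 2.57% of all genes. Cd68 was at 4.87 (3.10 to 7.32), Ms4a6c, a membrane protein of monocytes, at 4.65, Ctss, the protease cathepsin S, at 4.42, Ncf4, a subunit of the phagocyte oxidase, at 3.98, and Tyrobp, the adaptor DAP12, at 3.55. Spi1, which encodes the ETS factor PU.1, had a wide peak, and 40 of the 51 had no peak within 1 kb of a coding start. Of 10 mast cell genes, 0 had a member, with a Wilson upper bound of 27.8%.

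Adipocyte genes had members at 7 of 27 (25.9%, 13.2 to 44.7), and 0 wide peaks. Of the 7, 4 (Lipe, Nrip1, Plin1 and Elovl6) are genes that also have a start with 20 or more CG, and where the peak had to cover the start the share was 11.1% (3.85 to 28.1), beside 2.57% of all genes with a CpG-poor start. Lipe, the hormone-sensitive lipase, was the strongest at 5.09 (22 fragments, 3.27 to 7.59), with the summit in an intron 1173 bp downstream of the start. Nrip1 was at 3.73, Plin1, the perilipin that coats the lipid droplet, at 3.54, Elovl6, a fatty acid elongase, at 3.32, and Cfd, the secreted protease adipsin, at 3.05. Adipoq, which encodes adiponectin, had a weak peak (16 fragments, 2.59, 1.55 to 4.11) with the summit 852 bp upstream, and Plin4 the weakest at 2.26 (1.37 to 3.55). Of the other 20, 8 had a peak at another start only, for example Acly, Acaca and Dgat2 of lipid synthesis. The remaining 12 had none, among them Lep (leptin), Pparg, the nuclear receptor that directs fat cell formation, Fabp4, Cidec, Retn and Cd36. Slc2a4, the insulin-regulated glucose transporter, had 48 CG around its start and was not eligible. Defining genes of the labelled tissue were thus present among the members (Adipoq, Plin1) and absent from them (Lep, Pparg), and the part of leukocytes in the tissue was not tested. The study reports MOF at the promoter of the main Pparg isoform in this tissue by ChIP-qPCR. A gene without a listed peak is therefore not shown to lack MOF. Because whole tissue was assayed, more cells of a type and more binding per cell cannot be told apart in any of these groups.

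Other cells of adipose tissue and tissues that were not sampled gave few members. Endothelial genes had 2 of 17, Icam2 (3.68) and Pecam1 (3.10), and fibroblast and progenitor genes 2 of 25, Ly6a (3.98), which encodes the surface marker Sca-1, and Col15a1 (3.29). Their intervals, 3.29% to 34.3% and 2.22% to 25.0%, hold the background. Mesothelial genes had 0 of 8 (upper bound 32.4%) and smooth muscle and pericyte genes 0 of 6 (upper bound 39.0%), which also hold the background. A wide peak lay at Pdgfra, a receptor of fibroblasts and progenitors, and brought that list to 3 of 25 (12%, 4.17 to 30.0). Of 91 genes of liver, skeletal muscle, skin and the exocrine pancreas and gut, 1 had a member, the myosin light chain gene Mylpf at 3.76, and a wide peak lay at the muscle enolase gene Eno3. Mylpf lies in a run of 5 genes with members on chromosome 7 that also holds Spn, the leukocyte protein CD43, and Sept1. The 35 hepatocyte genes had 0, with an upper bound of 9.89%. Skeletal muscle genes had 1 of 18 (0.988% to 25.8%). Skin genes had 0 of 16 (upper bound 19.4%), and exocrine pancreas and gut genes 0 of 22 (upper bound 14.9%). The interval of each of these lists holds the background as well. The 4 leukocyte lists together had 60 of 167.

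**Figure D3:**
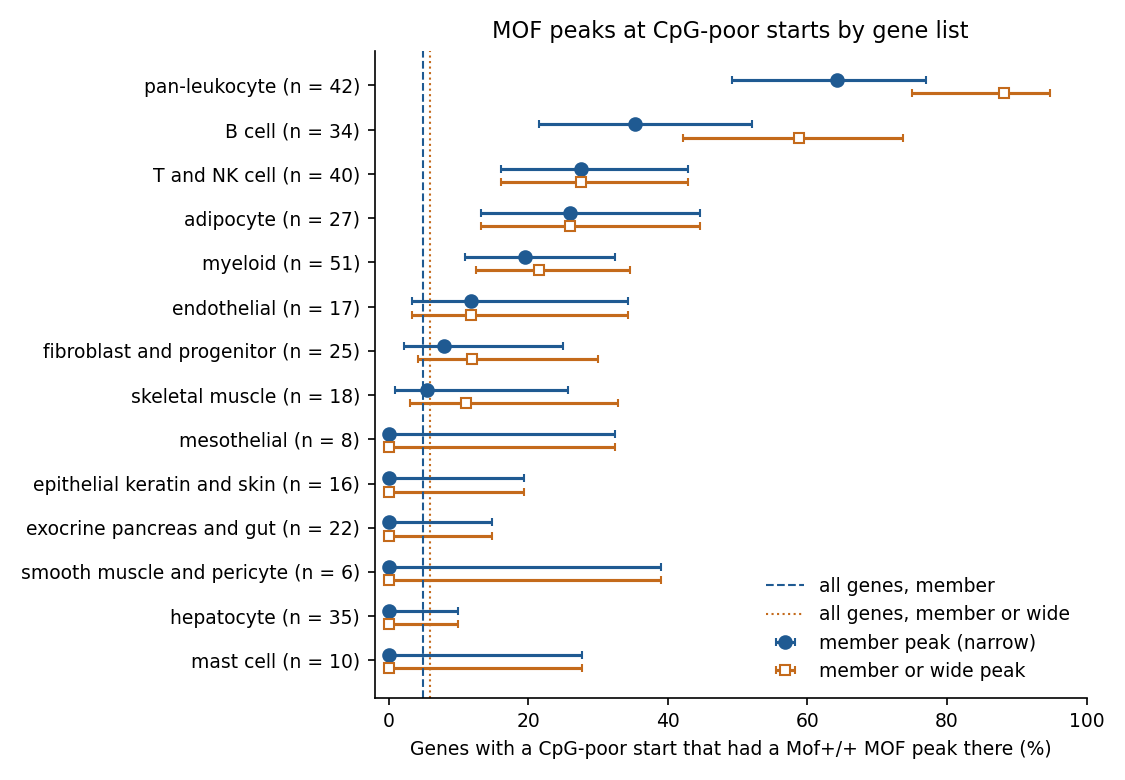
Share of genes with a CpG-poor start (x axis, percent, with Wilson 95% intervals) that had a member (circles) or a member or wide peak (squares), for 14 gene lists with the number of eligible genes in brackets. Pan-leukocyte genes lie highest at 64.3% and 88.1%, against 4.98% and 5.92% of all such genes (vertical lines).

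Families defined by gene name share genes with the lists. All 7 eligible Gimap genes are on a list, as are 11 of the 12 CD antigens with a member and 5 of the 9 such Ly6, Ms4a and Fc receptor genes, whereas 0 of the eligible interferon-induced and Trim genes are. Of 40 interferon-induced genes, 16 had a member (40%, 26.3 to 55.4), with the guanylate-binding protein Gbp5 at 4.20 and Ifi27 at 3.92. The next, at 3.76, were Gbp9, Ifi206, Ifi214 and Ifi27l2a. Gimap genes, small GTPases of lymphocytes, had 4 of 7, Gimap8 (3.54), Gimap9 (3.24), Gimap3 (2.73) and Gimap7 (2.55), and the other 3 had a wide peak. Trim genes, many of them antiviral ubiquitin ligases, had 6 of 36 (16.7%, 7.87 to 31.9), led by Trim34a and Trim5 at 5.09 and Trim12a at 4.64. CD antigens had 12 of 65 (18.5%, 10.9 to 29.6), Ly6, Ms4a and Fc receptor genes 9 of 47 (19.1%, 10.4 to 32.5) and interleukin and interleukin receptor genes 7 of 59 (11.9%, 5.87 to 22.5). Chemokine genes with their receptors had 3 of 45, Cxcr6, Ccr7 and Ccr1, at 2.90, 2.90 and 2.71. For these, for lectin-like receptors (3 of 53) and for serpins (3 of 54), the interval holds 4.98%. Solute carriers had 5 of 152 (3.29%), cytochrome P450 genes 2 of 84 and zinc finger proteins 3 of 167 (1.80%, 0.613 to 5.15), and these intervals hold it too. Olfactory receptors had 0 of 1123 (upper bound 0.341%), vomeronasal receptors 0 of 326, keratins and their associated proteins 0 of 71 (upper bound 5.13%) and ribosomal proteins 0 of 13 (upper bound 22.8%), of which the last 2 bounds lie above 4.98%. The copies within the Gimap, Trim, Gbp and Ifi families are similar in sequence, so reads could be split between them, which was not tested.

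Some members of these families lay side by side, as the genes themselves do. Of the 627 members, 160 (25.5%) were within 100 kb of a member at another gene, and 472 (75.3%) within 100 kb of a CpG-poor start of another gene. In the far larger comparison class, 4824 of 7091 (68.0%) were within 100 kb of such a peak at another gene. The longest runs held 6 genes each, with Aim2, a sensor of cytosolic DNA, Ifi206, Ifi214, Ifi213, Ifi209 and Ifi208 at chr1:173419055-173678875 (8 peaks, fold enrichment 2.38 to 3.76), and Platr17, H2-K1, H2-Oa, Brd2, H2-DMb2 and H2-DMb1 in the MHC at chr17:33903908-34155631 (9 peaks, 2.49 to 3.76). Runs of 4 genes were Trim34a, Trim5, Trim12a and Trim12c (chr7:104243921-104353862), Gimap8, Gimap9, Gimap7 and Gimap3 (chr6:48646988-48772317), Ly6g5b, Aif1, Lst1 and H2-D1 on chromosome 17, and Trim7, Gm5431, Tgtp1 and Ifi47 on chromosome 11. Slfn8, Slfn1 and Slfn3 formed a run of 3 on chromosome 11, as did Gbp5, Gbp3 and Gbp2 on chromosome 3. A single gene could also hold several members, since 89 genes had 2 or more and 17 had 3 or more. Akap13, an anchoring protein for protein kinase A, had 5, with fold enrichments of 2.89 to 4.65. Add3, the membrane skeleton protein adducin 3, had 4, of 3.10 to 4.44, and the adenylate cyclase gene Adcy7 had 3, of 3.98 to 4.64. Another Mof+/+ peak lay within 5 kb of 405 members (64.6%, 60.8 to 68.2) and of 2840 peaks of the comparison class (40.05%, 38.9 to 41.2).

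Summits lay farther from the start than in the comparison class. The median distance was 374 bp (95% interval of the median 332 to 417), against 225 bp (219 to 232) at CpG-richer starts. The summit was within 250 bp of the start in 38.1% (34.4 to 42.0) of members and 54.2% (53.0 to 55.3) of the others, and the peak covered the start in 44.5% (40.7 to 48.4) and 62.8% (61.7 to 64.0). The side differed by less than the intervals, with the summit downstream in 59.5% (55.6 to 63.3) and 62.5% (61.4 to 63.6). By the annotation of all protein-coding genes, 63.3% of member summits were in introns, 13.2% in UTRs, 10.0% in coding exons and 13.4% between genes, against 37.7%, 24.2%, 15.4% and 22.7%. At Il21r the summit was 1 bp from the start, and at Cd38 776 bp into the gene. Peaks at CpG-poor starts also had fewer sites for the cutting enzyme, with a median of 19.8 RGCY per kb against 24.9, and more repeat-masked sequence, 11.7% against 6.49%. The part of these in the lower fold enrichment was not tested.

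**Figure D4:**
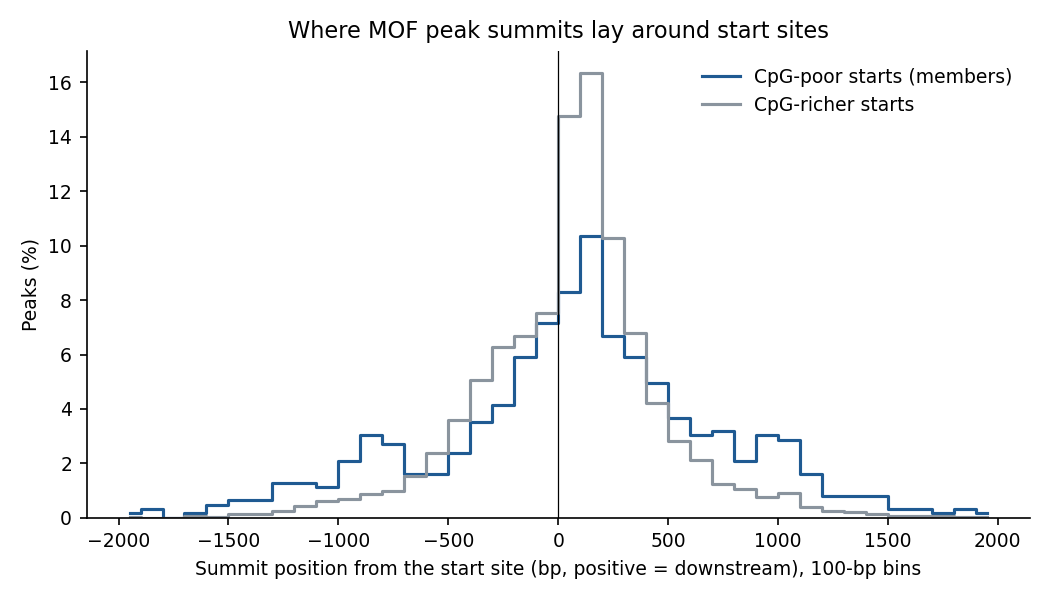
Position of peak summits from the nearest start site (x axis, bp, positive is downstream, bins of 100 bp) as a percentage of peaks (y axis), for the 627 members and the 7091 narrow peaks at CpG-richer starts. Both are highest just downstream of the start, and the members spread wider (median distances 374 bp and 225 bp).

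Some short motifs differed in frequency between promoters with a member and the remaining CpG-poor promoters. Each motif was searched on both strands in the 300 bases from 250 bp before to 50 bp after each start. This window was set by the start and not by the peak, which covered the start in 44.5% of members. The ETS core GGAAGT was found at 38.1% (34.2 to 42.1) of the 575 member starts, 22.1% of the 17827 other CpG-poor starts and 24.1% of all 52092 protein-coding starts. The longer GAGGAAGT, favoured by PU.1 and Spi-B and containing the former, was at 11.5% (9.12 to 14.3), 3.72% and 2.95%. ETS factors are known regulators of blood cell genes that lack CpG islands. Of the stretches printed above, those of Lck, Ptprc and Cd68 hold GGAAGT. The RUNX motif TGTGGTT was at 11.3% (8.97 to 14.2), 7.65% and 4.76%, and the core of interferon response elements, AAANNGAAA, at 21.04% (17.9 to 24.6), 16.1% and 10.2%. The Ifi27 stretch holds the latter. The TATA box motif TATAAA, counted anywhere in the 300 bases, was at 9.91% (7.73 to 12.6), less often than at other CpG-poor starts (21.7%). That interval holds the 11.3% of all starts. A TATA box from -45 to -16 relative to the start was at 1.39% (0.707 to 2.72) of member starts. It was at 3.47% of other CpG-poor starts and 1.74% of all starts. CCAAT was less frequent, at 27.3% (23.8 to 31.1) against 37.8% and 35.6%.

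For other motifs the member interval held the share of the other CpG-poor starts. These were the C/EBP-type TTGCNNAA (13.7% and 14.5%), the nuclear receptor half-site AGGTCA (18.1% and 20.4%), the AP-1 site TGACTCA (5.91% and 6.45%), the STAT site TTCNNNGAA (9.74% and 10.6%), the octamer ATGCAAAT (2.43% and 2.22%), the NF-kB-type GGANTTTCC (1.91% and 1.34%) and the CRE TGACGTCA (0.522% and 0.460%). The E-box CACGTG was at 4.87% and 3.28%, with a member interval of 3.39 to 6.95. The GC box GGGCGG was at 15.0% (12.3 to 18.1) of member starts, 6.77% of other CpG-poor starts and 71.5% of the CpG-richer starts with a narrow peak. Member starts had a higher GC content, with a median of 49.5% against 44.9%. Among starts with 10 to 19 CG, GGAAGT was at 38.4% of member and 22.9% of other starts, and TATAAA at 8.90% and 15.2%. Starts of a gene often overlap, so promoters are not independent items, and a match is not a binding site.

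**Figure D5:**
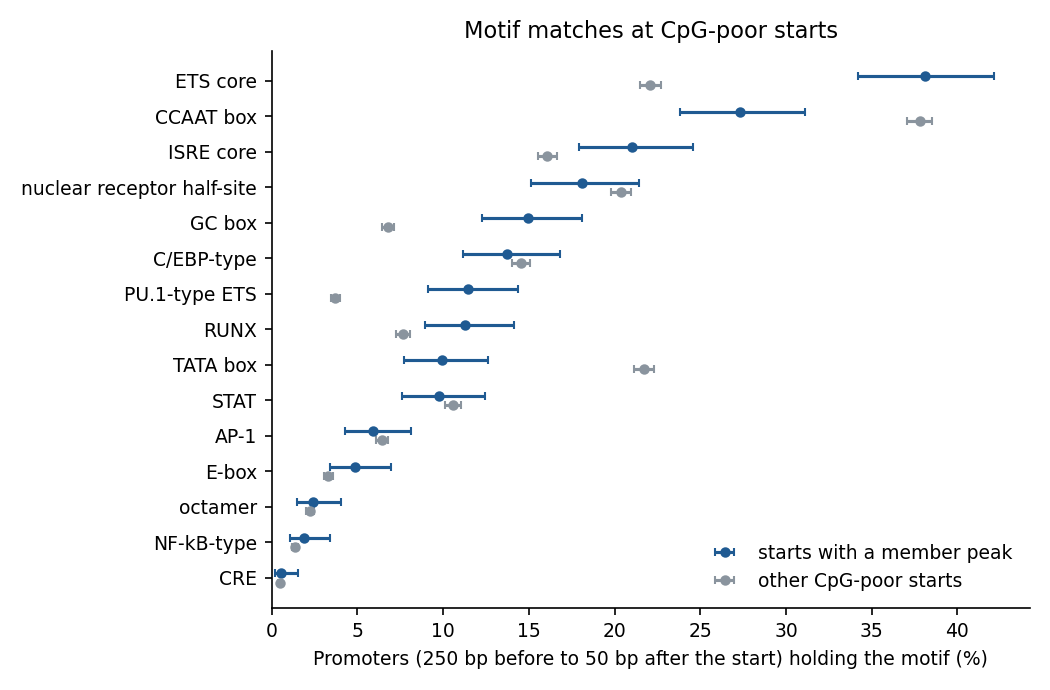
Share of 300-base promoters that held each of 15 motifs (x axis, percent, with Wilson 95% intervals), for the 575 starts with a member and the 17827 other CpG-poor starts. The ETS core stands at 38.1% against 22.1%, and the TATA box motif, counted anywhere in the promoter, at 9.91% against 21.7%.

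In the Mof+/- list almost none of these promoters had a peak. Of the 627 members, 8 (1.28%, 0.648 to 2.50) overlapped a Mof+/- peak by at least 1 bp, against 122 of 7091 (1.72%, 1.44 to 2.05) in the comparison class and 2.44% of all Mof+/+ peaks on chromosomes 1 to 19. The members' interval holds both other values. Of the 8, 5 lay in sequence with very high input, at the gene models Gm10800, Gm10720, Gm10717 and Gm11168 (2 peaks), where repeats made up 93.7% to 100% of the peak, the input background was over 10 times the lowest of the list and the fold enrichment only 1.04 to 1.78. The other 3 were at Rbbp8nl, at 3.76 in Mof+/+ and 4.29 in Mof+/-, Anxa1, a phospholipid-binding protein that limits inflammation, at 3.76 and 3.78, and Pax6, an eye and pancreas transcription factor, at 3.48 and 5.52. Without members of high input background, 3 of 622 (0.482%, 0.164 to 1.41) overlapped a Mof+/- peak. In the comparison class without such peaks, 115 of 7084 (1.62%, 1.35 to 1.94) did, a share above the members' interval, although both intervals overlap. The Mof+/- peaks that these 3 overlapped lay at chr2:180289493-180289915, chr19:20390288-20390718 and chr2:105676704-105676961. None of the genes with a member on the leukocyte or adipocyte lists was among the 8.

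The lists differed in what they could show. The Mof+/- list held 731 peaks. Its lowest background was 2.26 fragments, and its weakest summit at that background had 11 fragments, as in the Mof+/+ list. With 1 added to fragments and background, that count gave a fold enrichment of 3.68 for Mof+/- and of 2.65 for Mof+/+. Of the members, 434 (69.2%) were below 3.68, against 3193 (45.03%) of the comparison class. At that background, a site with the fold enrichment of most members would have been weaker than any Mof+/- peak listed there, while at higher backgrounds the list held lower folds, down to 1.26 among the peaks that overlapped members. Loss of binding and detection cannot be told apart for them.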

How the data were processed

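The members, gene lists, families and motifs were chosen with earlier results of these data known. The authors mapped reads to GRCm38 (snakePipes) and, per the labels, called peaks with MACS2 2.1.1.20160309.3. Peaks were called against input at a q-value threshold of 0.1, and whether a list comes from pooled replicates is not given in the sources used here. The authors' methods also name a merging of peaks at a distance of 1000 bp, yet 3796 neighbouring pairs of Mof+/+ peaks and 148 of Mof+/- peaks lay that close, so both lists were taken as unmerged. The deposited fold enrichment is a ratio that the authors' software computed as (fragments + 1) to (local input background + 1), which lowers folds at low background. The p-value and the q-value of each summit were deposited on the −log10 scale by the authors, together with the position of the summit, which served as a coordinate. No library total was given, so depth was read from the peaks. Fragments and background at each summit were solved from the fold enrichment and p-value of the authors' peaks, within 0.05 in −log10 p for all 627 members.

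Start sites were the 5′ ends of protein-coding transcripts in GENCODE mouse release M21, and sequence was GRCm38 patch 6. Each peak was given its nearest start. Of 503 listed genes, 502 were in the annotation. Shares have Wilson 95% intervals, fold enrichments exact Poisson intervals and medians intervals from order statistics. Peaks, genes and promoters are items of 1 list and not replicates, so no test was run. Genes were named by rule: the 12 members of highest fold enrichment with ties, the top 5 of each list and 3 of each family, those overlapping a Mof+/- peak, those at the thresholds, genes with several members, and Adipoq, Lep, Pparg, Slc2a4 and Cd3e. A few genes and 1 family that the rule names are not reported here. Names beyond the rule were chosen after their values were seen. Scripts ran in Python 3.11.15 with numpy 2.4.6, pandas 2.3.3 and scipy 1.17.1 and were tested on simulated data. The H3 libraries and signal tracks were not analysed here.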

Additional observations from a re-analysis of the deposited data

Results flagged for a closer look

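Chromosome X was left out of the rule, and the Mof+/+ list held 11 narrow peaks at CpG-poor starts there, in data that no comparison of the report used. They lay at 10 of 521 X-linked genes with such a start (1.92%, Wilson interval 1.05 to 3.50), below the 4.98% of chromosomes 1 to 19. Whether chromosome X was covered to the same depth as the other chromosomes was not tested. The strongest were at the vasopressin receptor gene Avpr2 (fold enrichments 3.54 and 3.32) and at Cybb (3.32), the catalytic subunit of the phagocyte oxidase. Il2rg (2.90), the common chain of interleukin receptors, Btk (2.65), the kinase of the B cell receptor, and Was (3.10), an actin regulator of blood cells, were among the others.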

How the results depend on the processing

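No paired analysis was possible because the values come from 1 peak list per genotype without replicate numbers, and for the same reason no replicate could be left out in turn. Of 147 values under 15 alternatives, 118 stayed within the interval of the main value, or within 1.5 times the main count, and 29 did not; 2 alternatives, without members near a CpG-rich start and without members of high background, were added after the data were seen. The 627 members became 392 with gene 5′ ends only, 385 and 975 with fewer than 15 and 30 CG, 279 where the peak had to cover the start, 286 without genes that also have a CpG-rich start and 414 after merging peaks within 1000 bp. The share of genes with a member, 4.98%, became 3.77% and 6.56% with fewer than 15 and 30 CG, 3.89% at a q-value of at most 0.01, 3.70% under 1000 bp of width, 4.49% with the summit within 1 kb and again without members near a CpG-rich start, 2.57% where the peak covered the start and 4.01% without genes that also have a CpG-rich start. The share overlapping a Mof+/- peak, 1.28%, became 0.519% with fewer than 15 CG and 0.482% without members of high background. The median fold enrichment, 3.32, became 3.54 at the stricter q-value and where the peak covered the start, and 3.10 under 1000 bp. The median summit distance, 374 bp, became 508 bp with gene 5′ ends, 300.5 bp with the summit within 1 kb and 172 bp where the peak covered the start. The pan-leukocyte share, 64.3%, became 45.5% with gene 5′ ends, 33.3% under 1000 bp and 40.5% where the peak covered the start. Where the peak covered the start, the myeloid share became 9.80% and the adipocyte share 11.1%, the B cell share became 17.6% under 1000 bp, and the T and NK cell share 12.9% with fewer than 15 CG. In each case fewer or more peaks met the rule. Depth limits the order of single members, and a list of 1 genotype limits any statement on animals.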
